A study of Mus musculus with 16 samples.

Results

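The corpus callosum of male wild-type C57BL/6 mice fed cuprizone (CPZ) for 2 weeks was compared with that of untreated mice. The comparison holds 3 arrays against 3 of the 16 samples of the series, those whose labels read 2 weeks of demyelination or untreated, with all 41174 probes of each array. The mice entered the study at 7 to 8 weeks of age. CPZ was mixed into powdered chow, at 0.2 to 0.4% by the sample labels and 0.2% by the methods, and the controls were kept on a normal diet. The controls were matched in age and sex to mice fed CPZ for 4 weeks, and how their age compared with that of the mice at 2 weeks is not given in the sources used here. The corpus callosum was cut out of frozen sections of perfused brains and its RNA was measured as a whole, so that fewer cells of a type and less RNA per cell cannot be told apart. The 4 arrays of mice fed CPZ for 4 weeks entered the same model to share its estimate of the spread. They also counted in the filter that chose the probes tested, and linked the slides where the slide was a block. By the methods, each condition had 3 to 6 mice, and the numbers that a figure legend of the paper gives for 2 and 4 weeks of CPZ equal those of the arrays. No source used here ties an array to 1 mouse, so p-values measure the spread between these samples. The scanner files of most samples are recorded under another sample than the deposited column of log2 values they match, and these records alone do not settle which is right. The columns were followed. With the files as recorded, limma called 0 genes (308 at an unadjusted p under 0.05) and the median difference of the myelin genes was 0.88 instead of −2.73, and 73 of 103 named genes had the opposite sign, so that most directions given here rest on that choice.

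CPZ is a copper chelator that kills mature oligodendrocytes, the cells that wrap axons in myelin, while most other cells of the white matter survive. Myelin is rich in cholesterol and in the glycosphingolipids galactosylceramide and sulfatide, and oligodendrocytes make these lipids themselves, with the sterol genes under the control of the transcription factor SREBP2. Cells that are short of amino acids, or whose mitochondria or endoplasmic reticulum (ER) are stressed, phosphorylate the translation factor eIF2, which favours the transcription factor ATF4 and its target genes, a programme called the integrated stress response. Microglia, the resident phagocytes of the brain, and astrocytes respond to damaged myelin with chemokines, phagocytic receptors and genes that interferon induces.

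Promoters are shown for 6 genes that carry the results on the stress response, on chemokines and interferon, and on cholesterol. They were taken from RefSeq (GRCm38.p6), 5′ to 3′ on the strand of the gene, and run from 250 bases before to 50 bases after the start of the transcript. Capitals mark a match on either strand to TGATGNAA, the element that ATF4 binds together with C/EBP proteins (Trib3, Nupr1), to the core of the interferon-stimulated response element, searched as GAAA, any 2 bases and GAAA (Cxcl10, Trim30d, Ifit1), or to TCACNCCAC, a sterol regulatory element (Hmgcs1). Trib3 lies on the reverse strand at chr2:152344011-152344310, Nupr1 on the reverse strand at chr7:126625421-126625720, Cxcl10 on the reverse strand at chr5:92348840-92349139, Trim30d on the reverse strand at chr7:104507800-104508099, Ifit1 on the forward strand at chr19:34640639-34640938 and Hmgcs1 on the forward strand at chr13:119690101-119690400.
Trib3: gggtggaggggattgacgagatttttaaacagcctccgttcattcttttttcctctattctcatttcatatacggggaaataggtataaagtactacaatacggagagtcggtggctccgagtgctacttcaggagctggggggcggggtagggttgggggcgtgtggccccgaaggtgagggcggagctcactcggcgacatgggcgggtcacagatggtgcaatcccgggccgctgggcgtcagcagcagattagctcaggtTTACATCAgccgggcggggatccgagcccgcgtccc
Nupr1: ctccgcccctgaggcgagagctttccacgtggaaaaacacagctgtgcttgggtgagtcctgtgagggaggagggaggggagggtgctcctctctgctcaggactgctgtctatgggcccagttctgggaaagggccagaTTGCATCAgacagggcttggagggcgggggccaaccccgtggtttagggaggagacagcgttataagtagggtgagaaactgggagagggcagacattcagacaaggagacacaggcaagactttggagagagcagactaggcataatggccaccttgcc
Cxcl10: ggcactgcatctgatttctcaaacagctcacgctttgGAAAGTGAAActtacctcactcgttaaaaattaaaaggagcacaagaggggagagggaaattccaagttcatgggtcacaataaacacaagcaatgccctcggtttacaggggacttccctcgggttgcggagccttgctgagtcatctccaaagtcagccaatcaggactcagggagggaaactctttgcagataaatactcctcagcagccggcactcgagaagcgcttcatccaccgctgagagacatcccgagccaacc
Trim30d: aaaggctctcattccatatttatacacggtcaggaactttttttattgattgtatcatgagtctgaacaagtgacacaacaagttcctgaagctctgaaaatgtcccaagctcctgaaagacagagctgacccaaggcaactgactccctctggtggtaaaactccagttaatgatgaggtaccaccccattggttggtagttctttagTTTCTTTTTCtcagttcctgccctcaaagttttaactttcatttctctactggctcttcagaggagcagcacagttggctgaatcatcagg
Ifit1: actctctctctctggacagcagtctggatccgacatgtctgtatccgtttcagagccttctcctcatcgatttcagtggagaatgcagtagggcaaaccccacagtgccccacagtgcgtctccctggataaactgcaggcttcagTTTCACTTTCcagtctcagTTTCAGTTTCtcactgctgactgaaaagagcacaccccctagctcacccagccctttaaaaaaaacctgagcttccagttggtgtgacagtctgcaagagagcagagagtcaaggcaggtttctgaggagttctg
Hmgcs1: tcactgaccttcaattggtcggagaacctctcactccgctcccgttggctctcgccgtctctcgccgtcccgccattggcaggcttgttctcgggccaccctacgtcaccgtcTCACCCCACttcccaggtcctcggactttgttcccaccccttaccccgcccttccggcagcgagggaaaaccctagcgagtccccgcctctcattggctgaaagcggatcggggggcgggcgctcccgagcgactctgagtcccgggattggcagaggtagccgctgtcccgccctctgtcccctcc

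TGATGNAA was found in 3.97% of all 32851 promoters of the table, the interferon element in 3.44% and TCACNCCAC in 1.24%. Of the 33 promoters listed for 28 genes of the integrated stress response, 9 held TGATGNAA (27.3%), those of Aars, Asns, Atf3, Chac1, Gars, Nupr1, Slc7a11, Trib3 and Vldlr. Of the 29 promoters listed for 24 interferon-stimulated genes, 12 held the interferon element (41.4%). Of the 18 promoters listed for 15 genes of cholesterol synthesis, 1 held TCACNCCAC (5.56%), that of Hmgcs1. A match says only that these letters stand in the window.

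On each array, the level of a probe is its log2 signal relative to the 75th percentile of the array, so that a difference of 1 between groups is a 2-fold change. Levels were compared between arrays within a probe, since probes differ in how well they bind, and a sum over a list weights its bright probes most. For genes with more than 1 probe, values are those of the brightest probe tested unless another is named. The share of probes well above background was 57.3 to 70.9% on the controls and 69.1 to 69.7% at 2 weeks of CPZ, and the number of arrays limits the precision. Control 1 stood apart: its Pearson's r across probes was 0.939 and 0.94 with the other controls, which reached 0.987 with each other, and the CPZ arrays reached 0.968 to 0.985. Control 1 shared its slide with CPZ arrays 1 and 3, and the other 3 arrays each lay on a slide of their own within the comparison. Defining genes of oligodendrocytes, the main cells of white matter, were bright on all controls, with Mbp at levels of 8.99, 8.62 and 7.95 and Cnp at 6.43, 5.56 and 4.85, and neuronal genes such as Tubb3, at 3.71, 3.49 and 3.69, were present too.

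limma tested 20404 genes and called 49, of which 18 rose and 31 fell. A called gene differed by 2-fold or more with an adjusted p under 0.05. These were 0.0882% and 0.152% of the genes tested, and 0.24% in either direction. The split was 15 higher and 14 lower with each array scaled to its median, which moved the median of all genes from 0.05 to −0.12, it was 17 and 67 with normexp background correction, and 65 and 36 with the slide as a fixed block. Of the 49 genes, 38 had a gene name, 15 that rose and 23 that fell. All 53 called probes had the 3 CPZ arrays on one side of the 3 controls, which the rule of the call favours.

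The number of calls depended on single arrays. It was 1, 10 and 9 without control 1, 2 and 3, 16, 47 and 7 without CPZ array 1, 2 and 3, and 70, 59, 52 and 8 without array 1, 2, 3 and 4 of the mice at 4 weeks. The split of 18 higher and 31 lower became 1 and 15 without CPZ array 1 and 39 and 8 without CPZ array 2. A limma fit of the 2 groups alone and the test that the methods name each called 0 genes. That test ran here without the remyelination arrays, which the paper's own test included, so its count cannot be set beside the paper's. Before adjustment, p lay under 0.05 for 2307 and 2993 genes, beside 2190 in the fit reported here. Among the called genes with a name, Ninj2 was called whichever of the 10 arrays was left out. Slc34a3, Lctl and Sprr4 were called in 9 of these 10 fits, Idi1 in 7, 4933430I17Rik in 6, the others in 1 to 5, and Sspo in none. With normexp, the fold of 26 of the 38 named genes was smaller by a factor of more than 1.5. Among the dim genes, the log2 difference with normexp was −2.16 for Klk6, −0.97 for Ly6g6f, −0.71 for Lctl, 1.73 for Ccl3, 0.70 for Trim30d and 2.01 for Cst7, and it was −1.67 for Ninj2, 3.17 for Trib3 and 3.24 for Cxcl10. Bounds given as at least a fold refer to the scaling used here, and those of Ly6g6f, Lctl, Ccl3, Trim30d and Cst7 were not reached with normexp. With the slide as a fixed block, 12 of the 38 named genes were not called: Klk6, Smtnl2, Carns1, Sspo, 5031439G07Rik, Shcbp1, Ptprd, Insig1, Stard4, Pla1a, S100a10 and Il1b, with adjusted p from 0.0525 to 0.0935. Of the named genes that were not called, 10 passed with that block, among them Eif4ebp1, Slc2a5 and Fcgr4, at adjusted p of 0.0466, 0.0466 and 0.0472. Genes that were well above background on no control passed the filter only through mice fed CPZ, where they are high, and are part of the counts that follow: 4 of the chemokines and cytokines, 2 genes each of activated microglia and of p53, and 1 each of the stress response, complement and reactive astrocytes.

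**Figure D1:**
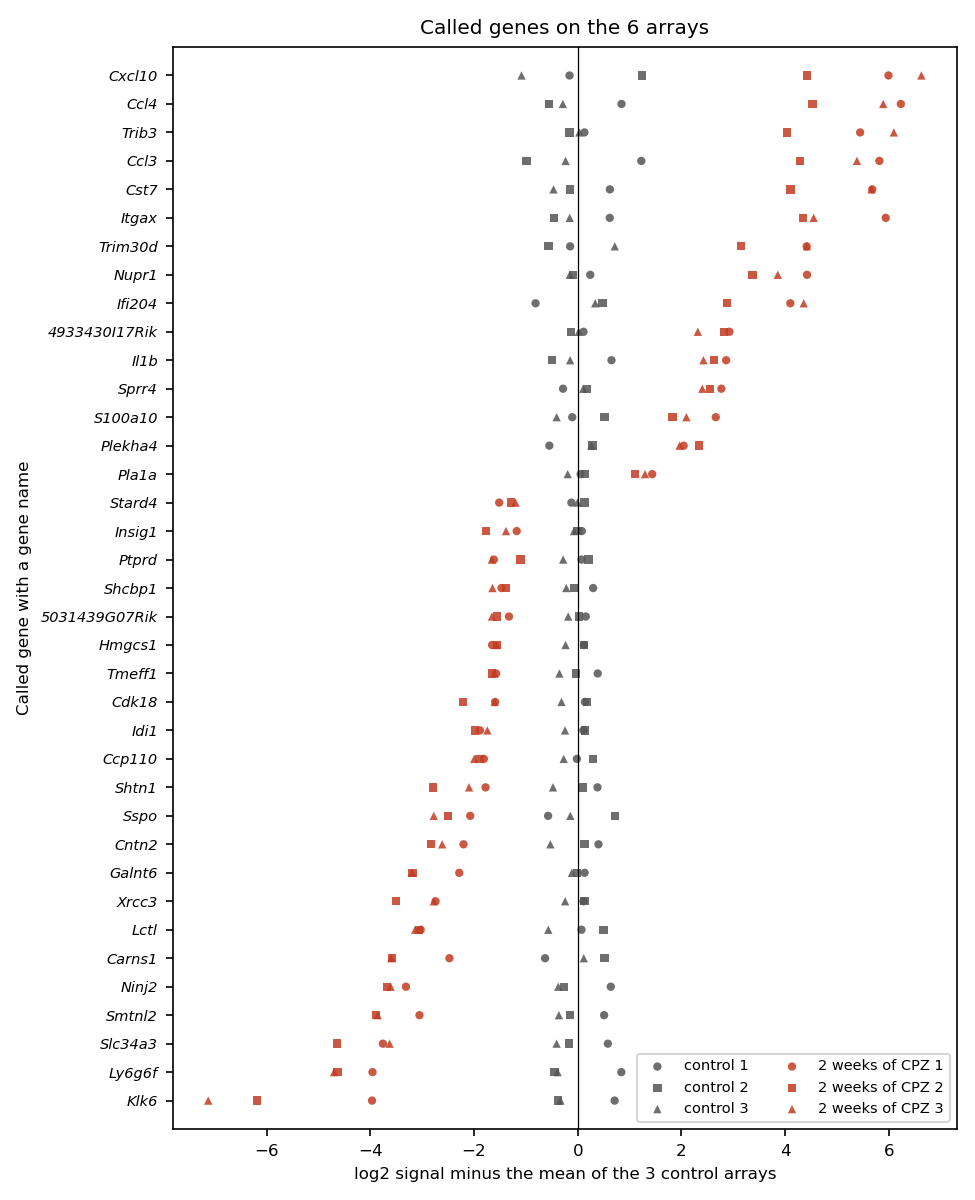
Level of 37 of the 38 called genes with a gene name on each array, as the log2 signal minus the mean of the 3 controls (x axis), with 1 row for each gene; grey marks are the controls, red marks the arrays at 2 weeks of CPZ, and the marker shape gives the array number. No CPZ mark lies within the range of the controls of its gene, and the rises of Cxcl10, Ccl4 and Trib3 span over 5 units on the log2 scale.

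The integrated stress response held Trib3 and Nupr1, which both rose. Trib3, a pseudokinase that ATF4 induces, had levels of −3.23, −3.52 and −3.33 in the controls and 2.08, 0.68 and 2.73 at 2 weeks of CPZ. The lowest CPZ array lay well above the highest control, and Trib3 rose by 5.19 on the log2 scale (SE 0.62, limma adjusted p = 0.0301), or 36.6-fold. A second, dimmer probe of Trib3 differed by 2.15 and was not called (adjusted p = 0.188). Nupr1, a small chromatin protein induced by stress, had levels of 0.12, −0.21 and −0.28 in the controls and 4.29, 3.25 and 3.73 under CPZ. It was bright on all 6 arrays, the groups were far apart, and it rose by 3.88 (SE 0.42, adjusted p = 0.0198), or 14.7-fold. In the promoters shown, the match in Nupr1 lies at −110 to −103 from the start of the transcript and that in Trib3 at 14 to 21, within the transcript.

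Of the 34 tested genes of this response, 21 had all 3 CPZ arrays above all 3 controls and 2 had them below. The shares of all genes tested were 8.16% and 8.64%, which hold for every list below. The lists were chosen with earlier results of these data known, so list counts set beside all genes are not independent of the data. The median difference of the list was 0.79, beside 0.05 for all genes. Relative to the control means, the median of the list was 0.24, −0.15 and −0.15 on the 3 controls and 0.98, 0.60 and 1.04 on the 3 CPZ arrays, so that the arrays did not overlap. Besides Trib3 and Nupr1, the smallest unadjusted p values belonged to Cth, which makes cysteine, and Eif4ebp1, an inhibitor of translation initiation, and neither passed the test. Cth stood at −2.36, −3.14 and −3.10 in the controls and −1.43, −1.58 and −1.26 under CPZ (1.45, adjusted p = 0.0693), and Eif4ebp1 at 0.23, −0.48 and −0.53 against 2.19, 1.25 and 2.34 (2.19, adjusted p = 0.0693).

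The branches of the list differed in size, as seen after the values were known and with no test of that difference. The aminoacyl-tRNA synthetases, which load amino acids onto their tRNAs, differed by −0.06 for Nars, −0.04 for Gars, 0.08 for Wars, 0.26 for Sars, 0.41 for Aars and 0.64 for Cars. The transcription factors differed by 0.68 for Cebpb, 0.87 for Atf4, 0.96 for Cebpg, 1.22 for Ddit3, 2.82 for Atf5 and 3.07 for Atf3. None of these 12 genes passed the test in the fit reported here. With the slide as a fixed block Atf3 and Atf5 did (adjusted p = 0.0466 and 0.0486). Atf5 stood at 3.68, 2.94 and 2.62 in the controls and 6.25, 5.15 and 6.31 under CPZ, whereas Asns, the asparagine synthetase and a common reporter of ATF4, overlapped at 4.35, 3.93 and 4.46 against 4.21, 4.78 and 4.79 (0.35, adjusted p = 0.808). Gdf15, a secreted stress cytokine, stood at −3.86, −4.86 and −3.61 against 1.05, −0.83 and 1.50 and was well above background on 2 of 3 controls (4.68, adjusted p = 0.0958). The 2 genes below the controls were Ddit4, an inhibitor of mTOR signalling (−1.60, adjusted p = 0.27), and Vldlr, a lipoprotein receptor (−0.59, adjusted p = 0.437). Atf3, Atf4, Atf5, Gdf15, Ddit4, Vldlr and the other genes of this paragraph were named after their values were seen.

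ER chaperones and their partners, the targets of the stress sensors of the ER, had a median difference of 0.28, and 1 of 16 had CPZ arrays that did not overlap the controls. That gene was Herpud1, which helps to degrade misfolded ER proteins, at 2.57, 2.59 and 2.20 against 3.36, 3.12 and 2.75 (0.62, adjusted p = 0.497). The next by p were Creld2 (0.66), the chaperone BiP encoded by Hspa5 (0.53) and Manf (0.57), with adjusted p of 0.59, 0.735 and 0.757. Control 1 was high for this list: without it, 11 of the 16 genes had CPZ arrays above both remaining controls, beside 15.7% of all genes.

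Of 20 genes of the p53 response and of apoptosis, 9 had all CPZ arrays above all controls and 0 below. The shares of all genes were 8.16% and 8.64%. The median difference of the list was 0.67, and none of the 20 passed the test. Without CPZ array 2, 14 of the 20 lay above, beside 15.5% of all genes. Cdkn1a, which encodes the cell cycle inhibitor p21, stood at −0.55, 0.39 and −0.55 in the controls and 3.61, 2.28 and 3.46 under CPZ. The groups were apart by more than their ranges, and the difference of 3.35 had an SE of 0.68 and an adjusted p of 0.0898, or 0.0466 with the slide as a fixed block. Eda2r, a death receptor that p53 induces, was not well above background on any control and was on all CPZ arrays, at least 5.52-fold higher (adjusted p = 0.141), but its difference was 0.44 with normexp. Tnfrsf10b, the TRAIL receptor of the mouse, was likewise at least 1.58-fold higher (adjusted p = 0.202), but its difference was −0.15 with normexp. Bbc3, which encodes the proapoptotic protein PUMA, differed by 1.36 (adjusted p = 0.203). Bax, a pore-forming protein of apoptosis that was named after its value was seen, differed by 0.06.

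Since CPZ binds copper, the genes of copper handling were examined. Of 15 such genes and metallothioneins, 2 had CPZ arrays above the controls and 1 below, beside 8.16% and 8.64% of all genes. The list median was 0.29, and none of the 15 passed the test. The count above was 8 without control 1 and 6 without CPZ array 2, beside 15.7% and 15.5% of all genes. Mt2, a metallothionein, lacked control 1, whose spot was an outlier, and stood at 7.10 and 6.39 in the other controls and 8.87, 7.52 and 8.24 under CPZ (1.47, adjusted p = 0.207). Cp, the copper-carrying ferroxidase ceruloplasmin, stood at −0.76, −1.15 and −1.78 against 1.03, −0.67 and 0.69 (1.58, adjusted p = 0.224), Mt3 differed by 0.67 (adjusted p = 0.591) and Commd1, a regulator of copper export, by −0.50 (adjusted p = 0.701). The copper exporters Atp7a and Atp7b and the importer Slc31a1, named after their values were seen, differed by 0.30, 0.07 and 0.39, and all 3 overlapped. Of 13 genes of the copper-dependent respiratory complex IV and its assembly, 1 had CPZ arrays above the controls, Cox10 (0.40, adjusted p = 0.893), and the median was 0.00. Without control 1 it was 4 genes, beside 15.7% of all genes.

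Of 16 antioxidant genes that Nrf2 induces, 2 had CPZ arrays above the controls and 1 below, with a median of 0.04, beside 8.16% and 8.64% of all genes. Without control 1 and without CPZ array 2, 6 lay above, beside 15.7% and 15.5% of all genes. Hmox1, which breaks down heme, stood at −1.49, −1.37 and −1.68 against 1.62, −0.48 and 1.24 (2.31, adjusted p = 0.101). Slc7a11, the cystine importer, is also a gene of the integrated stress response and stood at −0.54, −0.78 and −1.31 against 1.81, 0.68 and 1.24 (2.12, adjusted p = 0.142). Mgst1 and Nqo1 differed by 1.37 and 0.58, and their groups overlapped. None of the list passed the test.

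**Figure D2:**
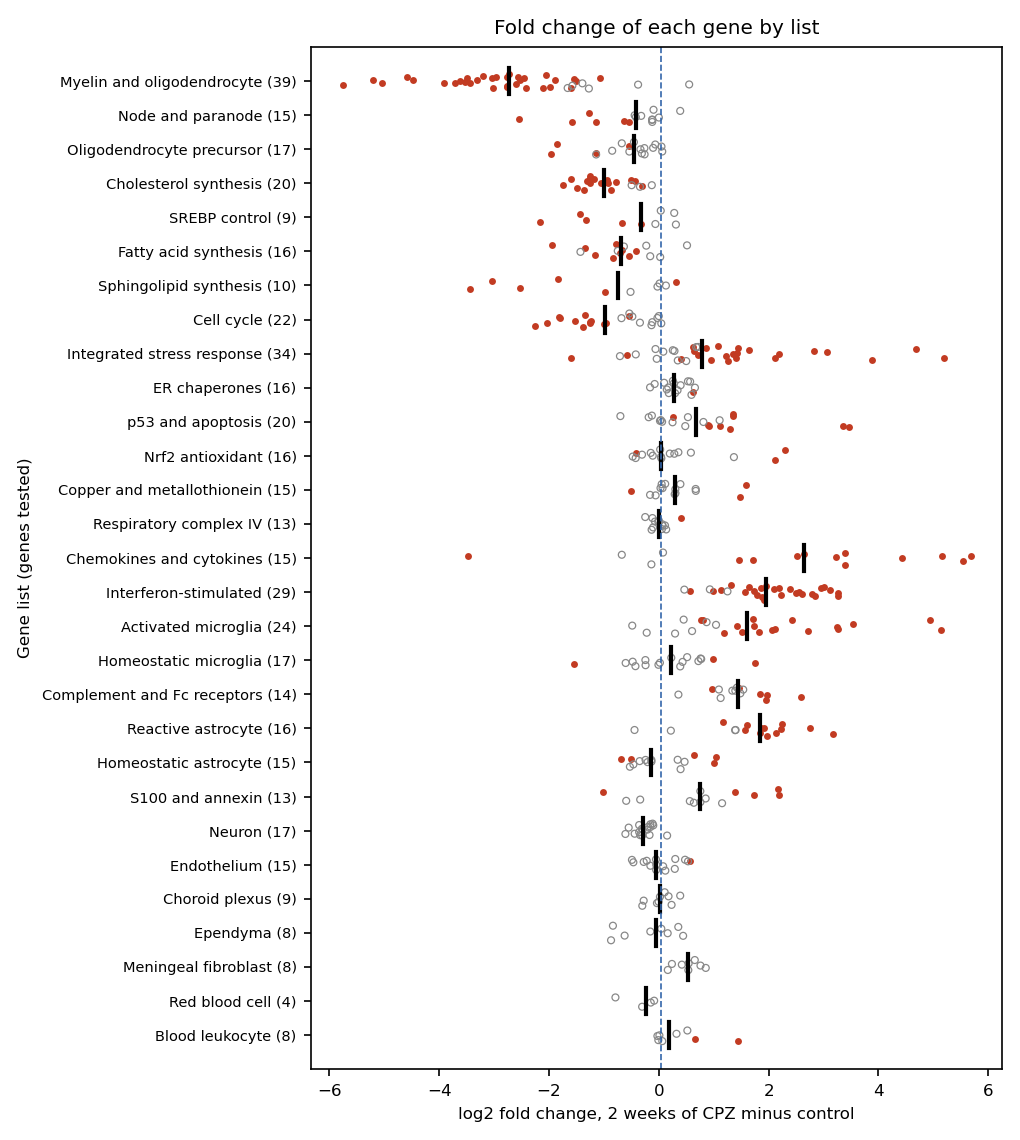
Difference of each tested gene between 2 weeks of CPZ and control as log2 fold change (x axis), by gene list (rows, with the number of genes tested); filled red points are genes whose CPZ arrays all lie above or all below the controls, open points those that overlap, black bars the list medians, and the dashed line is the median of all genes tested. The medians run from −2.73 for myelin and oligodendrocyte genes to 2.64 for chemokines and cytokines, the latter 1.71 with genes that have only a lower bound set at it.

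Of the chemokines and cytokines, 4 rose. Cxcl10, an interferon-induced ligand of CXCR3, had levels of −3.72, −2.32 and −4.65 in the controls and 2.43, 0.86 and 3.06 under CPZ. Every CPZ array was above every control, and the rise was 5.68 (SE 0.73, limma adjusted p = 0.0301), or 51.2-fold. Ccl4, a chemokine that attracts monocytes and lymphocytes, was well above background on 2 of 3 controls and went from −3.44, −4.84 and −4.57 to 1.94, 0.24 and 1.60, a rise of 5.55 (SE 0.61, adjusted p = 0.0203). Ccl3, its close relative, was not well above background on any control and went from −3.78, −6.00 and −5.24 to 0.81, −0.72 and 0.38, at least 25.1-fold higher (adjusted p = 0.0326). For each of these 3 chemokines, CPZ array 2 was the lowest CPZ array. Il1b, the inflammatory cytokine, was dim throughout, at −5.39, −6.55 and −6.19 against −3.18, −3.42 and −3.62, and at least 2.42-fold higher (adjusted p = 0.0357), but its difference was 0.0172 with normexp.

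Of 15 chemokines and cytokines tested, out of 25 in the list, 11 had all CPZ arrays above all controls and 1 had them below. The count above was 11 whichever of the 6 arrays was left out, and dropping an array can only keep or raise it. The median difference was 2.64, the highest of the lists, or 1.71 with the 4 genes that have only a lower bound set at that bound, which is below the medians of interferon-stimulated genes and of reactive astrocytes. Those 4 genes passed the filter on dim probes only through arrays of mice fed CPZ. Ccl2, which recruits monocytes through CCR2 and was named after its value was seen, was not well above background on any control. It stood at −0.63, −2.73 and 0.26 under CPZ, at least 12.5-fold higher (adjusted p = 0.0624, or 0.0466 with the slide as a fixed block). The gene below was Il33, an alarmin made by oligodendrocytes and astrocytes and also named after its value was seen, at 3.70, 3.12 and 2.67 against 0.91, −0.37 and −1.48 (−3.48, adjusted p = 0.102). The chemokines Cx3cl1, Cxcl12 and Cxcl14, which the healthy brain makes and which were named after their values were seen, overlapped between the groups, with differences of −0.14, −0.67 and 0.08.

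Of 29 interferon-stimulated genes, 26 had all 3 CPZ arrays above all 3 controls and 0 had them below. Leaving out 1 of the 6 arrays can only keep or raise this count. It then ran from 26 to 29, beside 10.8 to 15.7% of all genes. The median difference was 1.95. Relative to the control means, the median of the list was 0.37, −0.10 and −0.27 on the controls and 2.38, 1.1 and 2.82 on the CPZ arrays, of which array 2 was the lowest. None of the 29 passed the test in the fit reported here, 27 had an unadjusted p under 0.05, beside 4.5% of all genes tested, and 25 were at least 2-fold higher, beside 9.71%. Ifit1, which binds viral RNA and holds the interferon element at 2 places of the promoter shown, −104 to −95 and −85 to −76 from the start, had levels of −3.30, −2.75 and −3.57 in the controls and −0.09, −1.25 and 0.73 under CPZ (3.00, SE 0.50, adjusted p = 0.0598). Oas1a, a sensor of double-stranded RNA, differed by 3.26 (adjusted p = 0.0573) and Ifi44 by 2.84 (adjusted p = 0.0624), both well above background on 1 of 3 controls, and Oasl2 differed by 3.12 (adjusted p = 0.0693). These 4 genes passed with the fixed slide block (adjusted p = 0.0466), where the direct comparison rests on control 1. With normexp the differences of Ifit1, Oas1a, Ifi44 and Oasl2 were 1.48, 0.83, 0.60 and 2.22. The signal transducers Stat2 and Irf9 lay lower, with 0.57 for Stat2 and 1.57 for Irf9, and were named after their values were seen.

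Among the called genes, Ifi204 and Trim30d are known as interferon-inducible too, and were in none of the lists. Ifi204, a sensor of DNA, was well above background on 1 control by its brightest probe. It rose from −5.55, −4.26 and −4.40 to −0.64, −1.86 and −0.38 by this probe, or by 3.78 (SE 0.55, adjusted p = 0.0398). With normexp the difference was 1.12. A second probe was at least 8.25-fold higher (adjusted p = 0.0464), and the remaining one was not called (adjusted p = 0.208). For Trim30d, a tripartite motif protein, the called probe was well above background on none of the controls, stood at −5.94, −6.36 and −5.08 against −1.38, −2.65 and −1.38 and was at least 7.18-fold higher (adjusted p = 0.0301). Its brightest probe differed by 2.60 and was not called (adjusted p = 0.0598). Both genes have close paralogs, whose RNA may bind the same probes. In the promoters shown, the match to the interferon element lies at −213 to −204 from the start in Cxcl10 and at −41 to −32 in Trim30d.

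Among genes that mark microglia activated around damaged myelin, Cst7, an inhibitor of cathepsins, and Itgax, the integrin CD11c, rose. Cst7 was not well above background on any control, at −4.18, −4.95 and −5.27, and stood at 0.88, −0.70 and 0.87 under CPZ, at least 31.6-fold higher (adjusted p = 0.0386). Itgax, well above background on 2 of 3 controls, went from −3.67, −4.75 and −4.44 to 1.65, 0.05 and 0.26, a rise of 4.94 (SE 0.60, adjusted p = 0.0301). Of the 24 genes tested in this list, 17 had all CPZ arrays above all controls and 0 below, with a median of 1.61, among them Cst7 and Gpr65, which passed the filter only through mice fed CPZ. Lgals3, the lectin galectin-3, stood at −1.63, −2.10 and −2.59 against 1.33, −0.27 and 0.80 (2.72, adjusted p = 0.0736), and Cd52, a glycoprotein of leukocytes, at 0.64, −0.33 and −0.66 against 3.89, 1.96 and 3.60 (3.27, adjusted p = 0.0792). Neither passed the test. Both did with the slide as a fixed block (adjusted p = 0.0466), where control 1 is the only control that shares a slide with arrays at 2 weeks. Apoe, Cd9 and Cd63, which astrocytes and oligodendrocytes express as well and which were named after their values were seen, overlapped between the groups, with differences of 0.45, −0.48 and 0.30.

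Genes that mark microglia of the healthy brain had a median difference of 0.23, which ran from 0.0008 to 0.55 with 1 array left out and was −0.0027 with the slide as a fixed block. Of 17 tested, 2 had CPZ arrays above the controls and 1 below, beside 8.16% and 8.64% of all genes. None of the 17 passed the test. Fcrls stood at −1.55, −1.40 and −1.20 against 0.70, −0.34 and 0.77 (1.76, adjusted p = 0.0782), Mertk, a receptor for the uptake of dying cells, differed by 0.98 (adjusted p = 0.161) and Slc2a5, a fructose transporter, by −1.55 (adjusted p = 0.103). Aif1, which encodes IBA1 and marks all microglia, stood at 2.48, 1.67 and 1.68 in the controls and 3.09, 1.80 and 3.23 under CPZ (0.76, adjusted p = 0.723). P2ry12, a purinergic receptor of resting microglia, stood at 0.69, −0.04 and −0.21 against 0.11, −0.97 and −0.52 (−0.60, adjusted p = 0.695). For both genes the groups overlapped. Without CPZ array 2, 8 of the 17 genes lay above the controls, beside 15.5% of all genes, and without control 1 it was 5.

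Of 14 genes of complement and Fc receptors, through which phagocytes take up tagged material, 6 had all CPZ arrays above all controls and 0 below, with a median of 1.44. Without CPZ array 2 the count was 12, and without control 1 it was 11, beside 15.5% and 15.7% of all genes. None passed the test. Fcgr4 was well above background on 1 of 3 controls and differed by 2.58 (adjusted p = 0.0866). C3ar1, the receptor of the complement fragment C3a, was well above background on no control and at least 3.93-fold higher (adjusted p = 0.116). Fcgr1 and Fcgr2b differed by 1.95 and 1.85 (adjusted p = 0.155 and 0.168). With normexp the log2 differences were 0.42 for Fcgr4, 0.13 for C3ar1, 1.73 for Fcgr1 and 0.40 for Fcgr2b. Of 8 genes of blood leukocytes tested, 2 had CPZ arrays above the controls and 0 below, with a median of 0.19. Nkg7, of cytotoxic lymphocytes, was well above background on 1 of 3 controls and differed by 1.44 (adjusted p = 0.2), or 0.06 with normexp. Ly6c2, of monocytes, differed by 0.66 (adjusted p = 0.415), or 0.73 with normexp. The lymphocyte genes Cd3e, Cd4 and Cd79a, named after their values were seen, differed by 0.06, 0.01 and −0.03, and their groups overlapped. The summed linear level of the leukocyte list was 8.62 to 14.3 on the controls and 15.6 to 17.6 on the CPZ arrays, where the bright probe of Ly6c2 weighs most. Without Ly6c2 the sum was 0.566 to 0.801 and 0.69 to 1.19, and the groups overlapped. The part of these cells in the results on microglia was not tested.

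Genes of reactive astrocytes had a median difference of 1.85, or 1.73 with genes that have only a lower bound set at it. Of 16 tested, 12 had all CPZ arrays above all controls and 0 below, and none passed the test. Sphk1, which makes sphingosine 1-phosphate, stood at −1.51, −1.18 and −1.21 against 0.92, 0.99 and −0.29 (1.84, adjusted p = 0.0935). Osmr, the receptor of oncostatin M, differed by 2.76 (adjusted p = 0.0935) and Cd44, the hyaluronan receptor, by 3.17 (adjusted p = 0.125). Timp1, an inhibitor of metalloproteinases, differed by 2.22 (adjusted p = 0.151). The paper stained TIMP-1 in cells of these lesions that it took, by shape, for most likely oligodendrocytes or their precursors. Which cells carried the differences of this list was not tested. Gfap, the intermediate filament of astrocytes, stood at 3.53, 3.00 and 2.25 in the controls and 4.92, 3.53 and 3.86 under CPZ. The lowest CPZ array and the highest control were almost level, and the difference was 1.18 (SE 0.50, adjusted p = 0.492).

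Genes of homeostatic astrocytes had a median difference of −0.14, and of 15, 3 had CPZ arrays above the controls and 2 below. Without control 1, 5 lay above, beside 15.7% of all genes, and the median was 0.10. Without control 2, CPZ array 1 or CPZ array 2, 4 lay below, beside 12.9%, 12.6% and 16.1% of all genes, and with the slide as a fixed block the median was −0.42. Those above were the connexin Gjb6 (1.0, adjusted p = 0.103), the glutamate transporter Slc1a3 (1.05, adjusted p = 0.244) and the folate enzyme Aldh1l1 (0.63, adjusted p = 0.327). Those below were the glutamine synthetase Glul (−0.69, adjusted p = 0.591) and Ntsr2 (−0.51, adjusted p = 0.865), the latter named after its value was seen. Aqp4, the water channel of astrocytes, stood at 2.90, 2.80 and 2.08 against 3.00, 1.42 and 1.96, and the groups overlapped (−0.46, adjusted p = 0.893). None of these genes passed the test.

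S100a10, a member of the S100 family that pairs with annexin A2, rose. It had levels of −0.37, 0.25 and −0.67 in the controls and 2.39, 1.56 and 1.83 under CPZ, and the rise was 2.19 (SE 0.28, adjusted p = 0.0301), or 4.57-fold. Of the 13 S100 proteins, annexins and their like tested, 4 had CPZ arrays above the controls and 1 below, with a median of 0.76. Without control 1, 8 lay above, beside 15.7% of all genes, and the median was 1.16. Without CPZ array 2, 7 lay above, beside 15.5%, and without CPZ array 1 the median was 0.34. S100a11 differed by 1.73, S100a6 by 2.17 and Anxa3 by 1.39 (adjusted p = 0.131, 0.16 and 0.283). The gene below was S100b, which oligodendrocytes and astrocytes express, at 6.52, 5.66 and 5.47 against 5.21, 5.07 and 4.32 (−1.01, adjusted p = 0.315), named after its value was seen.

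**Figure D3:**
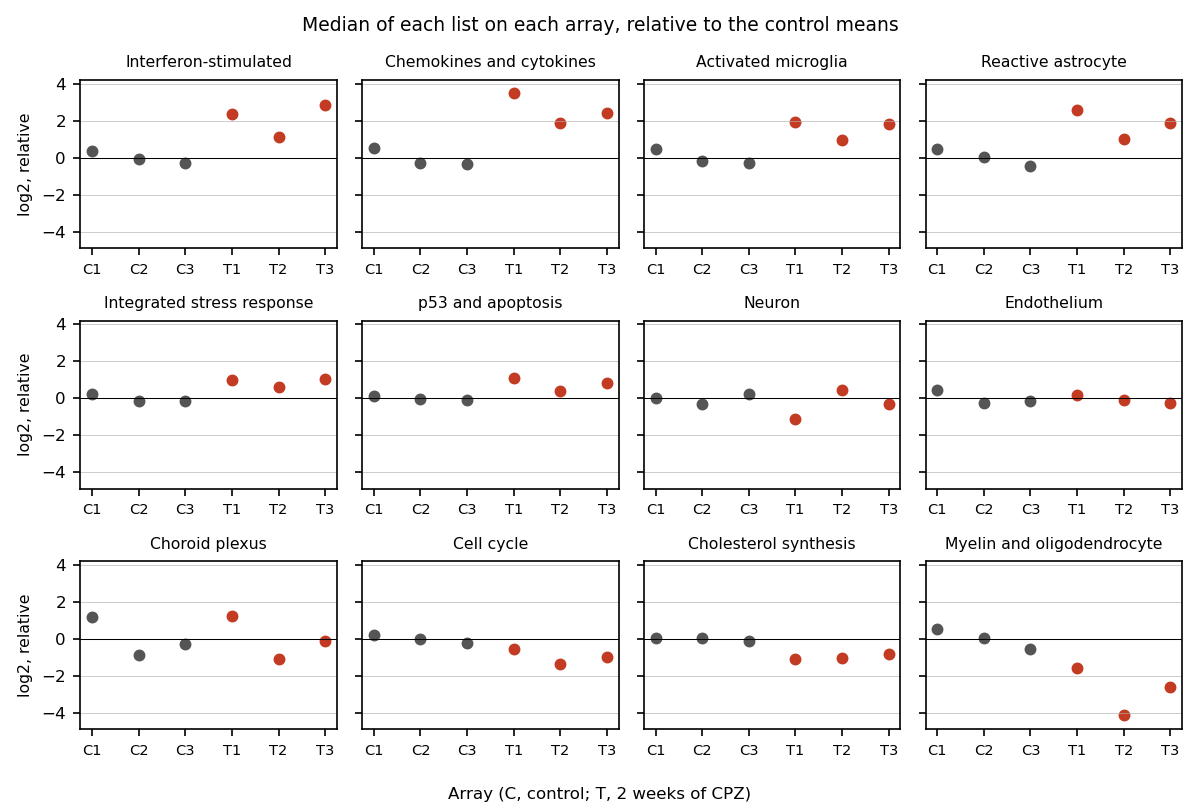
Median over the tested genes of each list of the log2 signal relative to the mean of the 3 controls (y axis), for 12 lists (panels) on the 3 control arrays (C, grey) and the 3 arrays at 2 weeks of CPZ (T, red) of the x axis. CPZ array 2 is the lowest CPZ array for myelin genes, at −4.12, and also for interferon-stimulated genes, at 1.1.

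Myelin and oligodendrocyte genes had the lowest median difference of the lists, −2.73. Of 39 tested, 38 were lower under CPZ and 37 of these by at least 2-fold, beside 2.86% of all genes tested, and 32 had an unadjusted p under 0.05, beside 5.03%. All 3 CPZ arrays lay below all 3 controls for 33. With 1 of the 6 arrays left out, which cannot lower this count, it was 33 to 37. The share of all genes was then 10.8 to 16.1%. Relative to the control means, the median of the list was 0.53, 0.03 and −0.55 on the controls and −1.56, −4.12 and −2.60 on the CPZ arrays, which thus differed from each other by more than the controls did. Its summed linear level was 933 to 2034 on the controls and 89.7 to 524 on the CPZ arrays.

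Of these genes, Ninj2 and Klk6 passed the test, and the genes of the main myelin proteins did not. Ninj2, an adhesion protein known from injured nerves, stood at 0.17, −0.73 and −0.85 in the controls and −3.78, −4.15 and −4.08 under CPZ, where the 3 arrays lay close together. It fell by 3.53 on the log2 scale (SE 0.31, limma adjusted p = 0.0119), to a level 11.6-fold lower. Klk6, a secreted protease of mature oligodendrocytes, went from 1.0, −0.08 and −0.04 to −3.67, −5.89 and −6.83, was well above background on 1 of 3 CPZ arrays, and fell by 5.76 (SE 0.83, adjusted p = 0.0386). Mbp, which encodes myelin basic protein, stood at 8.99, 8.62 and 7.95 against 6.64, 3.74 and 5.55. The CPZ arrays of Mbp were spread over almost 3 units, and the difference of −3.21 had an SE of 0.95 and an adjusted p of 0.22.

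The other structural genes showed the same order of the CPZ arrays, with array 1 the highest and array 2 the lowest. Mag, a glycoprotein of the inner myelin membrane, stood at 4.85, 1.91 and 3.18 under CPZ (−3.30, adjusted p = 0.195). Cnp stood at 4.06, 1.50 and 3.02 (−2.76, adjusted p = 0.289), and Mog at −1.31, −5.40 and −3.25 with 2 of 3 arrays well above background (−4.49, adjusted p = 0.117). Anln, the septin-binding protein anillin, differed by −3.50 (adjusted p = 0.0688). The transcription factors of the lineage, named after their values were seen, differed by −0.38 for Olig2, −1.08 for Sox10, −1.50 for Olig1 and −2.46 for Nkx6-2, and Myrf, which drives myelin genes, was the only member with a higher mean under CPZ (0.55, adjusted p = 0.632, groups overlapping).

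Genes of oligodendrocyte precursors and of newly formed oligodendrocytes had a median difference of −0.45. Of 17 tested, 4 had CPZ arrays below the controls and 0 above, beside 8.64% and 8.16% of all genes. None of the 17 passed the test. Pdgfra, the receptor that defines precursors, stood at 0.98, 0.57 and 0.21 against 0.54, −0.34 and 0.20 and Cspg4, which encodes NG2, at 1.04, 0.82 and 0.42 against 0.53, 0.19 and 0.64, and for both the groups overlapped. Among the genes with the smallest p values were Enpp6, a choline phosphodiesterase of newly formed oligodendrocytes (−1.85, adjusted p = 0.216), C1ql1 (−1.14, adjusted p = 0.301) and Bcas1 (−1.97, adjusted p = 0.423). The list reached 9 genes below the controls without CPZ array 1 and 10 without control 3, beside 12.6% and 12.7% of all genes.

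Of 22 genes of the cell cycle tested, 13 had CPZ arrays below the controls and 0 above, with a median of −0.98. None passed the test. Ccna2, which encodes cyclin A2, stood at −1.14, −1.35 and −1.61 against −2.35, −2.93 and −2.50 (−1.23, adjusted p = 0.0782), and Cenpf, Tk1 and Ube2c differed by −1.79, −1.38 and −1.34 (adjusted p = 0.0962, 0.123 and 0.133), with Tk1 well above background on 2 of 3 CPZ arrays. Mki67, which encodes the marker Ki-67 and was named after its value was seen, stood at −0.66, 0.33 and −0.21 against −0.99, −2.31 and −1.84 (−1.53, adjusted p = 0.142). Shcbp1, a protein of dividing cells outside the list, fell by 1.50 (adjusted p = 0.0373).

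Cntn2, the contactin that joins glia and axons beside the nodes of Ranvier, fell. It stood at 3.66, 3.39 and 2.73 in the controls and 1.06, 0.43 and 0.65 under CPZ by its brightest probe, and fell by 2.55 (SE 0.37, adjusted p = 0.0386), while its 2 dimmer probes differed by −0.98 and −0.89 and were not called. Of 15 genes of the node and paranode, 6 had CPZ arrays below the controls and 0 above, beside 8.64% and 8.16% of all genes. The list median was −0.42. Kcna1, a potassium channel subunit of the juxtaparanode, stood at 6.05, 6.22 and 5.68 against 4.39, 5.12 and 4.61 (−1.28, adjusted p = 0.0757). Epb41l3 differed by −1.59 (adjusted p = 0.0902) and Nfasc by −1.14 (adjusted p = 0.273). Also below the controls were Ank3 (−0.64) and Cntn1 (−0.54), and the 9 genes that overlapped differed by −0.44 (Kcnab2) to 0.39 (Nrcam), all named after their values were seen. Without CPZ array 2 the list had 11 genes below the controls, beside 16.1% of all genes, and a median of −0.79, and without CPZ array 1 its median was 0.0033. Neuronal markers differed between the CPZ arrays, with list medians of −1.1, 0.45 and −0.32 relative to the control means against 0.01, −0.33 and 0.24 on the controls, and summed linear levels of 119 to 363 against 214 to 309, and their part in these differences was not tested.

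Of the genes of cholesterol synthesis, Hmgcs1 and Idi1 fell, and the other members did not pass the test. All 20 genes had a lower mean under CPZ, 17 had all CPZ arrays below all controls, and the median difference was −1.0. The count of 17 ran up to 19 when 1 of the 6 arrays was left out, which cannot lower it. Relative to the control means, the list stood at 0.06, 0.04 and −0.10 on the controls and −1.08, −1.03 and −0.85 on the CPZ arrays. Unlike for the myelin genes, CPZ array 2 did not stand below the other arrays here, a difference that was not tested. Hmgcs1, which makes HMG-CoA early in the pathway, stood at 5.01, 5.00 and 4.65 in the controls and 3.23, 3.32 and 3.32 under CPZ. The CPZ arrays lay within 0.1 of each other, and Hmgcs1 fell by 1.59 (SE 0.21, limma adjusted p = 0.0301), or 3.01-fold, with a second probe at −1.58 that was called too (adjusted p = 0.0301). The match to TCACNCCAC in its promoter lies at −137 to −129 from the start.

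Idi1, which isomerises isopentenyl diphosphate, fell by 1.87 by 1 probe (SE 0.18, adjusted p = 0.0119), from 0.05, 0.08 and −0.30 to −1.94, −2.03 and −1.80, and its brightest probe differed by −1.75 without passing the test (adjusted p = 0.0542). Later in the pathway, Dhcr7, which reduces a double bond in the last step to cholesterol, differed by −1.50 (adjusted p = 0.0624) and did not pass.

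Of 9 genes that control SREBP or that it controls outside the synthesis itself, 3 fell, among them Insig1 and Stard4. Insig1, which retains SREBP in the ER, went from 0.23, 0.15 and 0.08 to −1.02, −1.61 and −1.23 and fell by 1.44 (SE 0.20, adjusted p = 0.0357), and a second probe differed by −1.27 (adjusted p = 0.0598). Stard4, a carrier of cholesterol within the cell, went from 1.07, 1.32 and 1.18 to −0.32, −0.09 and −0.01 and fell by 1.33 (SE 0.19, adjusted p = 0.0386). With the slide as a fixed block both missed the threshold, at adjusted p of 0.0608 and 0.0726. For both genes the lowest control stood more than 1 unit above the highest CPZ array. Of the members that did not pass the test, Srebf2 differed by −0.67 (adjusted p = 0.575) and, named after their values were seen, Srebf1 by 0.31, Scap by −0.32, Insig2 by 0.28, Mbtps1 by 0.04 and Mbtps2 by −0.06. The median of the list was −0.32.

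Of 16 genes of fatty acid synthesis, 9 had CPZ arrays below the controls and 0 above, beside 8.64% and 8.16% of all genes. The list median was −0.69, and none of the 16 passed the test. Elovl1, which elongates very long chains, differed by −1.35, the fatty acid synthase Fasn by −0.83, Elovl6 by −0.78 and Elovl7 by −1.95, with adjusted p from 0.131 to 0.205. Fasn stood at 5.85, 5.79 and 5.71 against 4.82, 5.08 and 4.96. Of 10 genes of sphingolipid synthesis, 5 had CPZ arrays below the controls and 1 above, Cerk (0.31, named after its value was seen). The shares of all genes were 8.64% and 8.16%, and the list median was −0.75. The enzymes of the myelin lipids had the largest differences: −3.44 for Fa2h, which hydroxylates the fatty acid, −3.04 for Ugt8a, which makes galactosylceramide, −2.52 for Gal3st1, which turns it into sulfatide, and −1.84 for Cers2, a ceramide synthase (adjusted p = 0.11, 0.192, 0.133 and 0.219). Fa2h, Ugt8a and Gal3st1, which are members of the myelin list too, had their lowest level on CPZ array 2. The enzymes at the start of sphingolipid synthesis, Sptlc1, Sptlc2 and Kdsr, named after their values were seen, differed by 0.01, −0.52 and −0.02.

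Called genes outside the lists were mostly lower. Slc34a3, a sodium-phosphate cotransporter, went from −0.11, −0.86 and −1.1 to −4.44, −5.32 and −4.32 and fell by 4.01 (SE 0.39, adjusted p = 0.0119). Smtnl2, a smoothelin-like protein, went from −0.31, −0.96 and −1.18 to −3.87, −4.71 and −4.67 and fell by 3.60 (SE 0.48, adjusted p = 0.0323). Both were well above background on 1 of 3 CPZ arrays, as was Carns1, which makes carnosine and fell by 3.22 (adjusted p = 0.0301), from −2.40, −1.25 and −1.65 to −4.24, −5.35 and −5.36. The 3 genes had no overlap between the groups.

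Xrcc3, a DNA repair protein, was well above background on all 6 arrays and went from −0.32, −0.30 and −0.67 to −3.17, −3.93 and −3.21 and fell by 3.01 (SE 0.39, adjusted p = 0.0301). Ly6g6f and Lctl were well above background on none of the CPZ arrays, and were at least 6.41-fold and at least 1.77-fold lower (adjusted p = 0.0464 and 0.0119). Galnt6, which starts the O-glycosylation of proteins, fell by 2.89 by 1 probe (SE 0.34, adjusted p = 0.0293), from −1.34, −1.49 and −1.59 to −3.76, −4.66 and −4.67 with 2 of 3 CPZ arrays well above background. Its brightest probe differed by −4.58, with the CPZ arrays spread from −1.28 to −4.69, and was not called (adjusted p = 0.104). The other 8 named genes that fell outside the lists by 1.46 to 2.45 were Sspo, Shtn1, Ccp110, Cdk18, Tmeff1, 5031439G07Rik, Shcbp1 and Ptprd. Of these, Shtn1, a protein of axon outgrowth, went from 4.54, 4.26 and 3.69 to 2.39, 1.37 and 2.07 (SE 0.30, adjusted p = 0.0356) and had 2 called probes, and for Ptprd the called probe was not the brightest, which differed by −1.02 (adjusted p = 0.21).

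The remaining named genes that rose were Pla1a, Plekha4, Sprr4 and 4933430I17Rik. Pla1a, a phospholipase specific for phosphatidylserine, went from −2.68, −2.60 and −2.93 to −1.30, −1.64 and −1.44, a rise of 1.28 (SE 0.19, adjusted p = 0.0398). With normexp its difference was 0.41. For Plekha4, 1 probe rose by 2.11 (adjusted p = 0.0356) while the brightest differed by −0.84 in the opposite direction and was not called (adjusted p = 0.173). Sprr4 and 4933430I17Rik were not well above background on any control and at least 2.12-fold and 2.06-fold higher (adjusted p = 0.0119 and 0.0179), but with normexp their differences were −0.0071 and −0.067. A further 11 called transcripts had no gene name, 3 that rose and 8 that fell.

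**Figure D4:**
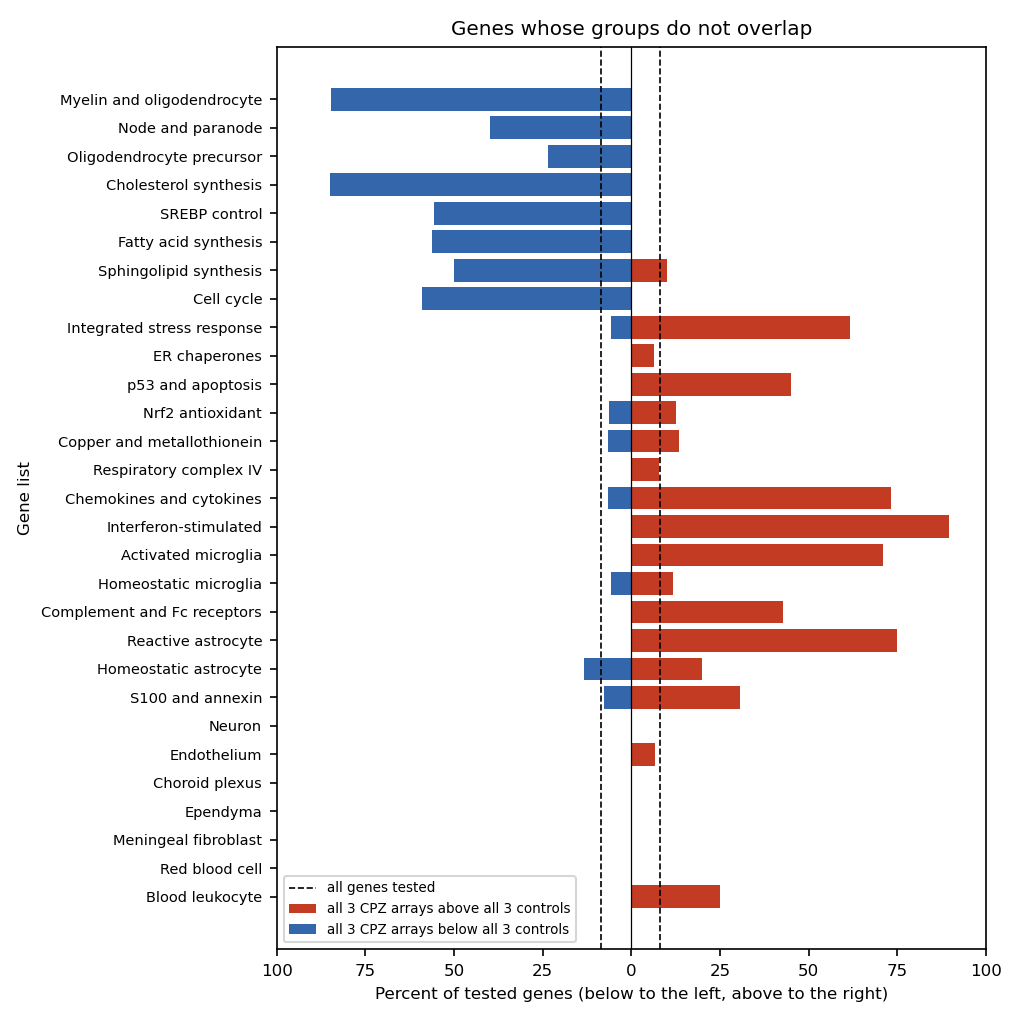
Percent of the tested genes of each list whose 3 CPZ arrays all lie above or all below the 3 controls (x axis, red bars to the right for above and blue bars to the left for below; rows are lists), with dashed lines at the shares among all genes tested. Of the interferon-stimulated genes 89.7% lay above and of the myelin and oligodendrocyte genes 84.6% below, beside 8.16% and 8.64% of all genes. The lists were chosen with earlier results of these data known, so these shares are not independent of the data.

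In several lists of cell types, few or no genes had groups that did not overlap. Neuronal genes had a median of −0.29, and 16 of 17 had a lower mean under CPZ. With all arrays the groups overlapped for each of the 17, but 7 lay below the controls without CPZ array 2, beside 16.1% of all genes, with a list median of −0.67, and without CPZ array 1 the median was 0.12. Endothelial genes had a median of −0.05, with 1 of 15 above the controls, the lipid transporter Mfsd2a (0.56, adjusted p = 0.465). Without control 1, 3 endothelial genes lay above, without control 2, 3 lay below, and without CPZ array 2, 3 lay above and 3 below. The shares of all genes were 15.7% above, 12.9% below, and 15.5% above and 16.1% below. Red blood cell genes had a median of −0.23 over 4 genes, all with a lower mean under CPZ. The median was −0.97 with the slide as a fixed block, −0.77 without CPZ array 1 and 0.24 without CPZ array 2. Without CPZ array 1, 3 of the 4 genes lay below the controls, beside 12.6% of all genes. Of the red blood cell genes, Slc4a1, the anion exchanger, differed by −0.79 (adjusted p = 0.421).

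Genes of the tissues that border the corpus callosum varied between arrays within each group. Choroid plexus genes had a median difference of 0.02 over 9 genes, but stood at 1.18, −0.88 and −0.26 on the controls and 1.25, −1.12 and −0.14 on the CPZ arrays relative to the control means. Ttr, the main product of the choroid plexus, named after its value was seen, stood at 2.00, −1.77 and 0.68 against 1.56, −0.65 and 0.70. Ependymal genes stood at 1.0, 0.29 and −1.33 and 1.35, −1.11 and −0.56, with a median difference of −0.05 over 8 genes, and meningeal fibroblast genes at 0.29, 0.20 and −0.49 and 1.96, −0.47 and −0.06, with 0.54 over 8 genes. Control 1 and CPZ array 1, which shared a slide, were the highest arrays of their groups for all 3 lists. CPZ array 3, on the same slide, lay in the middle of its group for all 3. None of the 25 genes had groups that did not overlap. With the slide as a fixed block the median differences were −0.82 for choroid plexus, −0.66 for ependyma and 0.25 for meningeal fibroblasts, and with 1 array left out they ran from −0.65 to 0.58, −0.78 to 0.42 and −0.28 to 0.88. The part of these tissues in the other results was not tested.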

How the data were processed

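Total RNA of the corpus callosum was labelled in 1 colour and measured on Agilent 4x44K arrays. The authors deposited spot intensity values from Agilent Feature Extraction (version 11.0.1.1 in the submitters' processing notes), which were background-subtracted but not scaled between arrays. Also deposited were log2 values made by the authors in GeneSpring with scaling to the 75th percentile and, as the values show, a baseline at the control median. The scanner file of 14 of 16 samples is recorded under another sample than its column of log2 values. Each array was taken from the column it matched (r of 1.0 over 22016 probes, next best array at most 0.883). These records alone do not settle which is right.

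Control and outlier spots were dropped, replicate spots were averaged, and each array was scaled by subtracting the log2 of its 75th percentile. Testing required a probe to be well above background on all arrays of 1 or more of the 3 groups, which left 27505. Of 41174 probes, 27479 (66.7%) had a gene name through RefSeq (GRCm38.p6). limma 3.58.1 in R 4.3.3 fitted 10 arrays (7 residual degrees of freedom, prior 2.2), with Benjamini-Hochberg adjustment over all tested probes, and was tested on simulated data. A bound on a fold sets the brighter group against, for each dim array, whichever is higher of the probe's signal and the lowest signal called well above background there.

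The text names called genes, up to 4 genes with the smallest p in each of 29 lists (515 genes), and 11 fixed genes, of which some are not reported here. Members and lists were chosen with earlier results of these data known. Alternatives were quantile and median scaling, normexp (on median signals, offset 50), the deposited log2 values, other filters, slide and replicate blocks, array weights, the methods' test and leaving out each array. After the data were seen, 2 were added: the overlap of the groups with each array left out, and list medians with bounds. The remyelination arrays were not used here.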

Additional observations from a re-analysis of the deposited data

How the results depend on the processing

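The number of genes called was 49, and it was 29 with median scaling, 84 with normexp, 79 with a filter on all 10 arrays, 101 and 281 with the slide as a fixed and as a random block, 1266 with array weights, and 0 with the fit of the 2 groups only, the methods' test, the replicate block and the scanner files as recorded. Unadjusted p values under 0.05 numbered 1610 genes with the replicate block and 308 with the files as recorded. Of the 49 genes, 27, 26, 28, 32, 49 and 48 were called again under the first 6 of these settings. With quantile scaling 64 genes were called (43 shared), with the deposited log2 values 49 (48 shared) and with no filter 44 (39 shared). With 1 array left out, the calls ran from 1 to 70, and the genes above and below the controls from 2212 to 3206 and from 2201 to 3277, against 1664 and 1763 with all 6 arrays, since fewer arrays overlap less. The replicate numbers of the labels did not pair the arrays: deviations from the group means of same-numbered arrays correlated at 0.115, −0.0482 and −0.115, and 0 of 3 controls correlated best with their own number.

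The median of all genes was 0.05, and −0.12 with median scaling. List medians moved as follows, and the cause was not tested. Median scaling gave −1.16 for cholesterol, −0.49 for SREBP control and 0.029 for leukocytes. normexp gave −0.80 for cholesterol, 0.28 for p53, 0.85 for activated microglia, 0.71 for complement and Fc receptors, 1.14 for chemokines, 1.07 for interferon, 1.22 for reactive astrocytes, −0.45 for the cell cycle and −0.14 for leukocytes, and turned Sprr4 to −0.0071, 4933430I17Rik to −0.0671 and Tnfrsf10b to −0.15. The filter on all 10 arrays gave 1.59 for chemokines and −0.54 for the cell cycle. The fixed slide block gave −1.20 for cholesterol, −0.47 for SREBP control, −0.91 for fatty acids and −0.97 for red blood cells. Array weights gave −0.83 for cholesterol, 1.07 for the stress response and 2.84 for interferon. The deposited values and the fit of the 2 groups gave 0.32 for leukocytes. With 1 array left out, medians ran from −1.14 to −0.95 for cholesterol, 0.46 to 1.06 for p53, 0.0495 to 0.39 for leukocytes and −0.13 to 0.33 for endothelium.

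With the scanner files as recorded, 73 of 103 named genes had the opposite sign, and list medians were 0.88 for myelin, 0.19 for the node, 0.10 for precursors, 0.44 for cholesterol, 0.0883 for SREBP control, 0.27 for fatty acids, 0.23 for sphingolipids, −0.32 for the stress response, −0.34 for ER chaperones, −0.33 for p53, −0.17 for copper, 0.59 for activated microglia, 0.58 for complement and Fc receptors, 0.71 for chemokines, 0.69 for interferon, 0.10 for reactive astrocytes, 0.53 for the cell cycle, 1.25 for the choroid plexus and 0.051 for leukocytes. Signal over background limits genes that a group measured on no array to a bound.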
